A study of Mus musculus with 2 samples.

Results

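Among cells of mouse vein grafts, 139 fibroblasts were chosen for high Cxcl14 together with at least 1 Prg4 UMI, a unique molecule tag that counts 1 captured mRNA. They were 139 of 21983 kept barcodes and of 12830 barcodes that passed a gate for fibroblast matrix genes. The gate asked that Col1a1, Col1a2, Col3a1 and Dcn together make up at least 1.5% of a barcode's UMIs and that Cdh5, an endothelial cadherin, and Sox10, a Schwann cell factor, have 0 UMIs. Within the gate, Cxcl14 had to reach 20 per 10000 UMIs, Prg4 at least 1 UMI, while Pi16 had to lie under 10 and Saa3 under 60 per 10000 UMIs. The choice rests on measured values, so the levels of these genes describe the choice, and every comparison of the chosen cells with other cells is a description with no test.

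Both single-cell RNA libraries of the study were made from sorted cells without CD45, the surface antigen of leukocytes. One is of No-Touch vein grafts and the other of conventional vein grafts, both from C57BL6/J mice aged 10 to 12 weeks. In surgery, No-Touch harvest leaves the tissue around the vein in place, whereas conventional harvest strips it. How many animals and grafts were pooled, and how long after grafting, is not stated in the labels. With 1 library per graft type there is no replicate check, so each value sets 1 library against 1 other, and no p-value is given. Intervals are exact at 95% and cover counting error only.

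Cxcl14 encodes a chemokine that many epithelia and stromal cells secrete without stimulation. Prg4 encodes lubricin, the glycoprotein that keeps joint surfaces and tendon sheaths sliding and that lining fibroblasts of the synovium make. Timp1 encodes a secreted inhibitor of matrix metalloproteinases, Inhba the subunit of activin A, a ligand of the TGF-beta family, and Serpinb2 an inhibitor of plasminogen activators. Fibroblasts of the vessel's outer coat make its collagen and proteoglycan matrix and answer injury with chemokines, matrix inhibitors and provisional matrix such as tenascin C.

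The sequences upstream of the start are shown for 4 genes: Cxcl14, which chose the cells, Timp1 and Tnc, which were high together in them, and Serpinb2, a listed marker that was not. They are RefSeq windows of 250 bases on GRCm38.p6, 5′ to 3′ on the gene's strand, and 4 of the 5 listed markers had an entry. Capitals mark the AP-1 motif TGANTCA and the TATA box TATAAA, searched on both strands with no overlap between them.
Cxcl14: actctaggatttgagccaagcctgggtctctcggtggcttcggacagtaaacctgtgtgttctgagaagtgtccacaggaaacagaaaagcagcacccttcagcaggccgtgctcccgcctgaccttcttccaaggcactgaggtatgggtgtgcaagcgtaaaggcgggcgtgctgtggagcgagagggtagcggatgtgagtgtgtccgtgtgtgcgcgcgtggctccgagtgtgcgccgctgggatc
Timp1: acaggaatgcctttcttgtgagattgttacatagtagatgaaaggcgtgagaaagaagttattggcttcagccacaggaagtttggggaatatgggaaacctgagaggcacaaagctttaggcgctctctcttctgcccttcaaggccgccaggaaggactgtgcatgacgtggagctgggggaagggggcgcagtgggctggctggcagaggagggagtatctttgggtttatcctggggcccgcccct
Tnc: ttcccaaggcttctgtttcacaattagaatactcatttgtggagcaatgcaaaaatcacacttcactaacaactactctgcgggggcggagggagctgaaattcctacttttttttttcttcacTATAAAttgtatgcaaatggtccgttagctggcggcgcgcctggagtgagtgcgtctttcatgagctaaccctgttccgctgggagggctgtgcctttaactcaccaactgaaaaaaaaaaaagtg
Serpinb2: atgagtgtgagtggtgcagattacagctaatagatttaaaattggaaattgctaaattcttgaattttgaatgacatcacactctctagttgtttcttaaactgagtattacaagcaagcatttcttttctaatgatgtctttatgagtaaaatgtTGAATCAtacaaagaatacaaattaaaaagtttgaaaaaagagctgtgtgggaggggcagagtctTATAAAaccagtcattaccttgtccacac
These windows lie at chr13:56296552-56296801 on the minus strand for Cxcl14 and chrX:20869916-20870165 on the plus strand for Timp1. The Tnc window is chr4:64047016-64047265 on the minus strand and the Serpinb2 window chr1:107511173-107511422 on the plus strand, each the first of 2 windows listed for its gene. The Serpinb2 window holds 1 AP-1 motif that begins 94 bases before the start and 1 TATA box that begins 29 bases before it. The Tnc window holds 1 TATA box, 126 bases before the start, and no AP-1 motif, and the windows of Cxcl14 and Timp1 hold neither. Of 32851 windows of the same length, 6.75% hold the AP-1 motif and 12.4% the TATA box, and a match or its lack describes these letters only.

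In depth the libraries differed. The No-Touch library had 371908809 UMIs over 11525 kept barcodes, with a median of 28472 UMIs, and the conventional library 197303425 UMIs over 10458 kept barcodes, with a median of 16778.5 UMIs. The chosen cells were deep in both, with a median of 38093 UMIs in No-Touch, where the other gate cells had 32365, and of 35729.5 UMIs in conventional, where the others had 20451. Of the kept barcode sequences, 18 occurred in both libraries. All 6 of the fixed fibroblast markers that the rule did not use (Pdgfra, Lum, Col6a1, Col6a2, Serpinf1 and Dpt) reached 50 counts per 1000000 UMIs (CPM) in the chosen cells of both libraries.

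The chosen cells were scarcer in the No-Touch library. They numbered 29 of 7912 gate barcodes in No-Touch, or 0.367% (0.246 to 0.526), and 110 of 4918 in conventional, or 2.24% (1.84 to 2.69). The ratio of these shares, No-Touch over conventional, was 0.164 (0.0913 to 0.286, from the corners of both intervals). Over all kept barcodes the shares were 0.252% in No-Touch and 1.05% in conventional. When each cell was first thinned to 5000 UMIs, the rule chose 30 cells in No-Touch and 100 in conventional, with shares of 0.354% and 1.90%. The ratio came nearest to 1 with a stricter matrix gate: at 3% matrix UMIs, 20 No-Touch and 21 conventional cells were left, with shares of 0.368% and 1.02% and a ratio of 0.36. The sort, the digestion and the tissue carried along at surgery can set such shares, and their part was not tested.

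**Figure D1:**
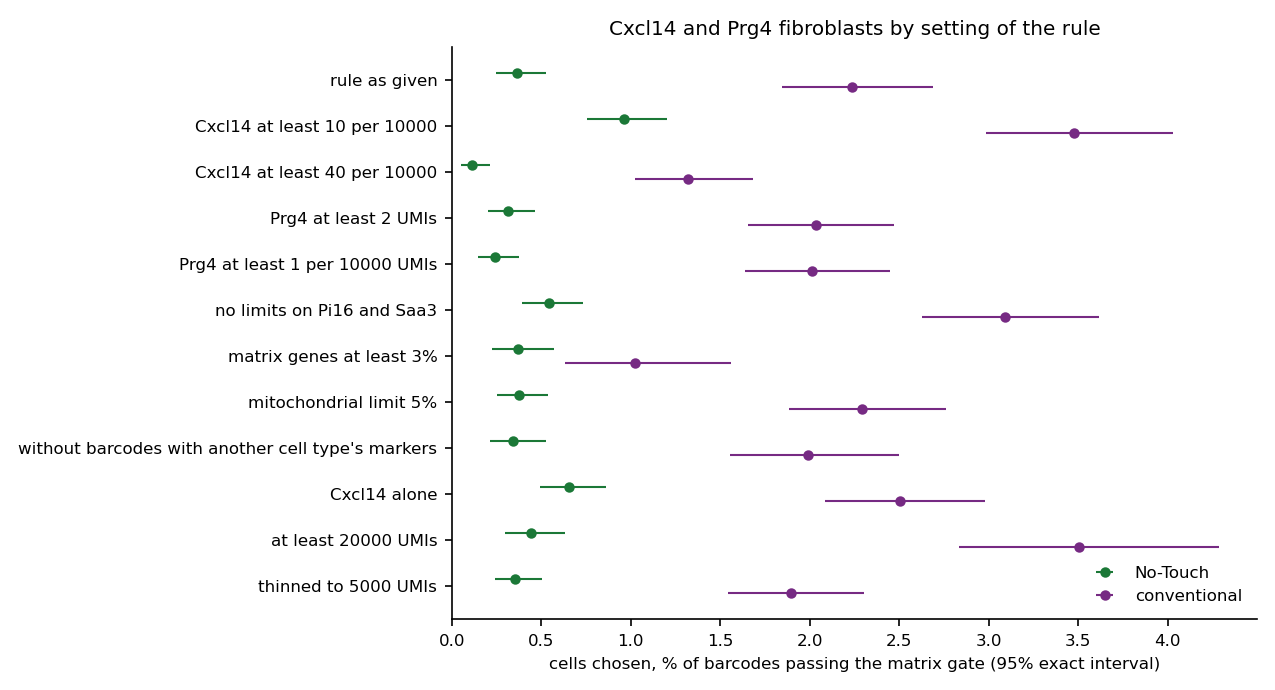
Share of chosen cells among gate barcodes, in percent, with 95% exact intervals, for the rule as given and 11 other settings; green points are the No-Touch and purple points the conventional library. The No-Touch share lies below the conventional share under each setting drawn, from 0.114% to 0.961% in No-Touch against 1.02% to 3.51% in conventional.

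The 4 matrix genes of the gate took a median of 3.64% of UMIs in the No-Touch chosen cells, close to the 3.77% of the other No-Touch gate cells. In the conventional chosen cells they took 2.36%, where the others had 2.75%. Of the chosen cells, 69.0% reached 3% matrix UMIs in No-Touch and 19.1% in conventional, against 42.2% of the other conventional gate cells. The rule chose on these genes, so the shares are a description.

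Of the genes that chose the cells, Cxcl14 (chr13:56288643-56296551, minus strand, mm10) had a median of 34.6 per 10000 UMIs in No-Touch, with a range of 21.2 to 70.3. In conventional its median was 43.3, with a range of 20.4 to 212. Prg4 (chr1:150449412-150466165, minus strand) had a median of 1.48 per 10000 UMIs in No-Touch, from 0.275 to 47.5, and of 11.0 in conventional, from 0.325 to 327. The No-Touch cells were thus mostly cells of low Prg4: 5 of 29 reached 10 per 10000, against 58 of 110 in conventional.

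A Prg4 UMI is weak evidence on its own. Of the other gate cells, 65.7% in No-Touch and 70.3% in conventional held one too. Barcodes with a Cdh5 UMI are called endothelial here, though 1 UMI is enough, so fibroblasts with a stray Cdh5 UMI can be among them. At least 2 UMIs over 7 markers of other cell types were held by 67.8% of them in No-Touch and 75.2% in conventional. A Prg4 UMI was in 42.6% of them in No-Touch and 47.6% in conventional, at median depths of 24417.5 and 15723 UMIs. How much of this is background was not tested. After thinning to 5000 UMIs, a Prg4 UMI was left in 62.1% of the chosen No-Touch cells, 35.7% of the other gate cells and 20.1% of the endothelial barcodes. In conventional these shares were 82.6%, 45.0% and 28.1%. Cells with 1 Prg4 UMI numbered 4 in No-Touch, with a median Cxcl14 of 25.2 per 10000 UMIs, and 10 in conventional, with 40.6. Just outside the rule, 23 No-Touch and 13 conventional cells had Cxcl14 past the threshold and no Prg4 UMI. Their median Timp1 was 2.63 and 2.04 per 10000 UMIs, where cells with 1 Prg4 UMI had 9.53 in No-Touch and 1.85 in conventional. The cells with no Prg4 UMI had median depths of 32254 UMIs in No-Touch and 17154 in conventional. These lay below the 38093 and 35729.5 UMIs of the chosen cells.

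Near the Cxcl14 threshold median Timp1 rose from band to band in conventional. In No-Touch it rose across the threshold and was alike in neighbouring bands on either side. Cells from 20 to 30 per 10000 UMIs numbered 10 in No-Touch and 30 in conventional, with median Timp1 of 6.50 and 10.0 per 10000. Cells from 10 to 20 that met the other conditions numbered 47 in No-Touch and 61 in conventional, with median Timp1 of 3.32 and 5.97. Cells from 5 to 10 had 3.60 in No-Touch and 4.82 in conventional, and those from 30 to 60 had 6.21 and 12.3. At 60 or more, 2 No-Touch cells had 71.6 and 43 conventional cells 24.6. The limit on Pi16 removed 10 No-Touch and 26 conventional cells, and the limit on Saa3 removed 4 and 16.

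The label names 5 markers, and the values went with it for some and not for others. Timp1 (chrX:20870166-20874735, plus strand) was high in both libraries. Its level per cell in No-Touch had a lowest value of 2.21, a median of 6.22 and a highest value of 190 per 10000 UMIs, where other gate cells had a median of 2.39. In conventional it ran from 0 through a median of 15.3 to 167, where others had 2.26. Above the upper quartile of the other gate cells lay 21 of 29 chosen No-Touch cells and 90 of 110 chosen conventional cells. Over summed UMIs, Timp1 was at 3811 CPM in No-Touch (3707 to 3917), 6.0 times the other gate cells, and at 4594 CPM in conventional (4529 to 4660), 5.51 times the others.

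The No-Touch sum rests on few cells. In that library 4 of 29 cells had Timp1 of at least 50 per 10000 UMIs, and these 4 held 84.3% of all Timp1 UMIs. In conventional 25 of 110 cells did, with 75.6% of the UMIs, while the 4 highest cells held 22.7%. Without its highest cell in each library Timp1 was still 4.46 times the other gate cells in No-Touch and 5.26 times in conventional, and without its 3 highest cells 1.92 times in No-Touch and 4.79 times in conventional.

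Inhba (chr13:16011851-16031621, plus strand) separated the libraries. It was at 75.1 CPM in No-Touch (61.1 to 91.4), with a UMI in 14 of 29 cells, and at 521 CPM in conventional (499 to 543), with a UMI in 68 of 110 cells. That was 1.67 times the other gate cells in No-Touch and 6.03 times in conventional. Without its highest cell Inhba was 1.01 times the others in No-Touch and 5.06 times in conventional.

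Serpinb2 (chr1:107511423-107535478, plus strand) did not separate the chosen cells from the others. It was at 22.5 CPM in No-Touch and 62.8 CPM in conventional, below the other gate cells, which had 70.4 and 145 CPM. By cells with a UMI the order was the other way, with 7 of 29 No-Touch and 37 of 110 conventional cells, or 24.1% and 33.6%, where the other gate cells had 19.0% and 25% and endothelial barcodes 16.8% and 21.4%. After thinning to 5000 UMIs the shares were 3.45% in No-Touch and 11.0% in conventional, where others had 5.53% and 10.2%. Of the chosen cells, 1 cell held 80.0% of the No-Touch and 56.3% of the conventional UMIs. The cells are therefore called here by Cxcl14 and Prg4, the genes of the rule.

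**Figure D2:**
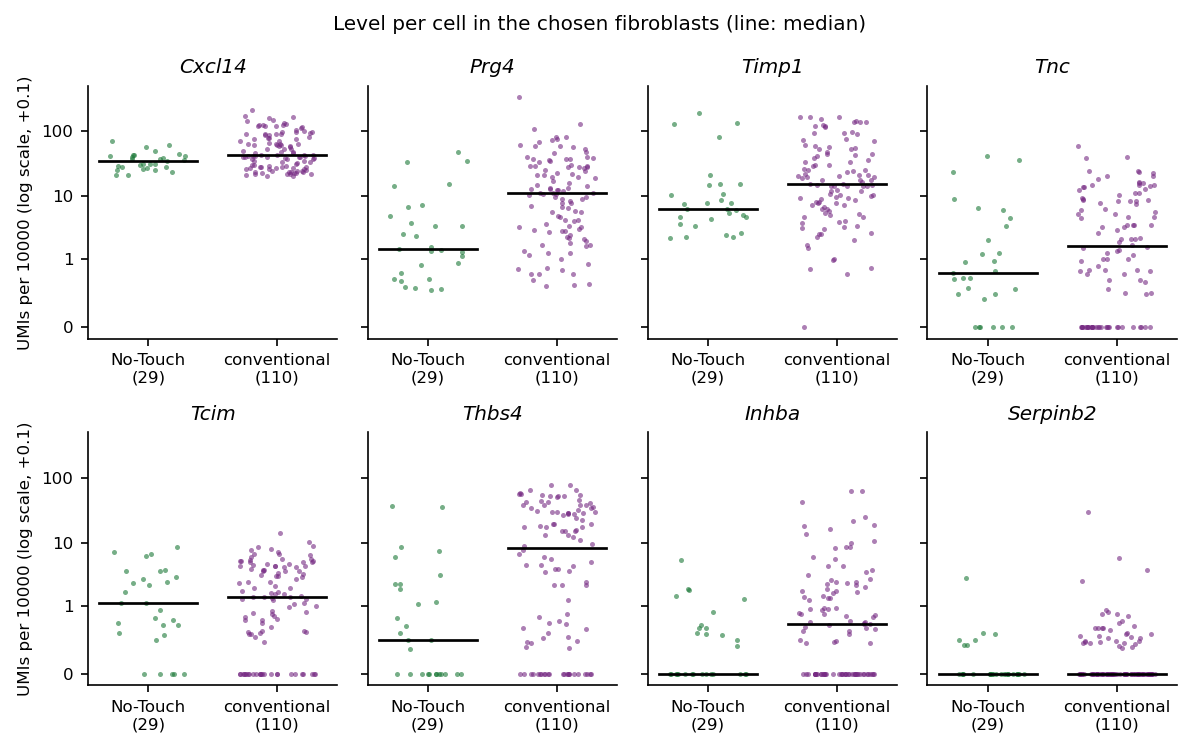
UMIs per 10000 in each chosen cell (log scale, with 0.1 added), No-Touch left and conventional right, for the genes of the rule Cxcl14 and Prg4 and 6 others; each point is 1 cell and the line is the median. Timp1 has a few cells far above the median of 6.22 in No-Touch and a broad spread about 15.3 in conventional, Thbs4 has medians of 0.225 and 8.38, and Serpinb2 has a median of 0 in both.

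Set against the other gate cells, few genes were apart in both libraries. Of 2832 genes of at least 50 CPM, 15 (0.53%) were at least 2 times higher in the chosen cells of both libraries and 30 (1.06%) at least 2 times lower, leaving out the genes of the rule. In single libraries the counts were 46 higher and 43 lower in No-Touch and 91 higher and 121 lower in conventional. The cells were chosen from the same data, so nothing is read from these counts. Without each gene's highest cell in each library, the count of higher genes fell to 4 and that of lower genes came to 48. Only the chosen cells lost a cell here, and the other gate cells kept theirs. The direction of this change therefore follows from the setting.

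The genes that stood highest beside Timp1 included a matrix glycoprotein and a small regulator of transcription. Tnc encodes tenascin C, a glycoprotein of provisional matrix. It was at 760 CPM in No-Touch, 4.44 times the other gate cells, and at 827 CPM in conventional, 8.01 times the others. Tcim, the regulator of transcription and Wnt signalling, was at 256 CPM in No-Touch and 298 CPM in conventional, 3.54 and 4.25 times the others. Timp1, Tnc and Tcim each kept 2 times in both libraries without their highest cell, but the No-Touch level of Tnc rests on 3 cells. They held 79.7% of its No-Touch UMIs, and without them Tnc was at 188 CPM there, 1.1 times the others. In conventional the 3 highest cells held 22.9%, and Tnc was 6.50 times the others without them. The median cell had 0.564 Tnc UMIs per 10000 in No-Touch and 1.64 in conventional, where others had 0.234 and 0. Without its 3 highest cells Tcim was 2.23 times the others in No-Touch and 3.86 times in conventional. Tcim had a UMI in 24 of 29 No-Touch and 85 of 110 conventional cells.

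In No-Touch the next 11 named genes, apart from Col4a1, lay under 2 times without their highest cell. Cilp, a cartilage intermediate layer protein that binds TGF-beta, was at 727 CPM in No-Touch, of which 1 cell gave 48.2%, and at 641 CPM in conventional. Its ratio to other gate cells was 2.85 in No-Touch and 3.48 in conventional, and without the highest cell 1.56 and 3.38. Has2, a hyaluronan synthase, was 2.19 times the others in No-Touch and 2.71 times in conventional, and without the highest cell 1.53 and 2.47 times. Col8a1, a short-chain collagen of injured vessels, was 2.02 times the others in No-Touch and 3.60 times in conventional. Il4ra, the receptor chain for interleukins of type 2 immunity, was 2.57 and 2.85 times, and Csgalnact1, an enzyme of chondroitin sulfate synthesis, 2.43 and 3.54 times. Emb was 2.11 and 2.22 times, and Smim3, Actn1, Fibin, Ppa1 and Col4a1 lay between 1.92 and 2.39 times in the libraries. Col4a1 encodes a chain of basement membrane collagen and Actn1 an actin crosslinker.

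Part of the list of universal fibroblast genes stood low. Of 12 measured universal fibroblast genes, 4 were at least 2 times lower in both libraries, where 1.06% of all genes were, and 0 were higher, with list medians of -0.90 (log2, chosen cells over others) in No-Touch and -0.82 in conventional, where all genes tested had medians of -0.01 and 0.07. Sema3c, a secreted guidance cue, was at 13.5 CPM in No-Touch, where others had 154, and at 12.7 CPM in conventional, where others had 68.7. Cd34, a surface sialomucin of stromal progenitors, was at 219 CPM in No-Touch and 88.8 CPM in conventional, where others had 467 and 224. Clec3b and Pcsk6 made up the rest of the 4. Among the named genes, Fmo2, a monooxygenase, was 0.29 and 0.14 times the others in No-Touch and conventional, and Scara5, a ferritin receptor, 0.404 and 0.177 times. Cd55, which shields cells from complement and marks synovial lining, was 0.326 and 0.199 times. Sbsn, Ptn, Pamr1, Ablim1, Gstm1, Cdkn1c and Ahnak2 lay between 0.228 and 0.395 times. The rule capped Pi16, and part of these genes go with Pi16-high cells. Such cells under the Saa3 limit made up 2030 of the 7883 other gate cells in No-Touch and 1153 of 4808 in conventional. Their part in the low values was not tested. The 6 fixed fibroblast markers named above summed to 5531 CPM in No-Touch and 3746 CPM in conventional chosen cells, where others had 5276 and 4433.

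**Figure D3:**
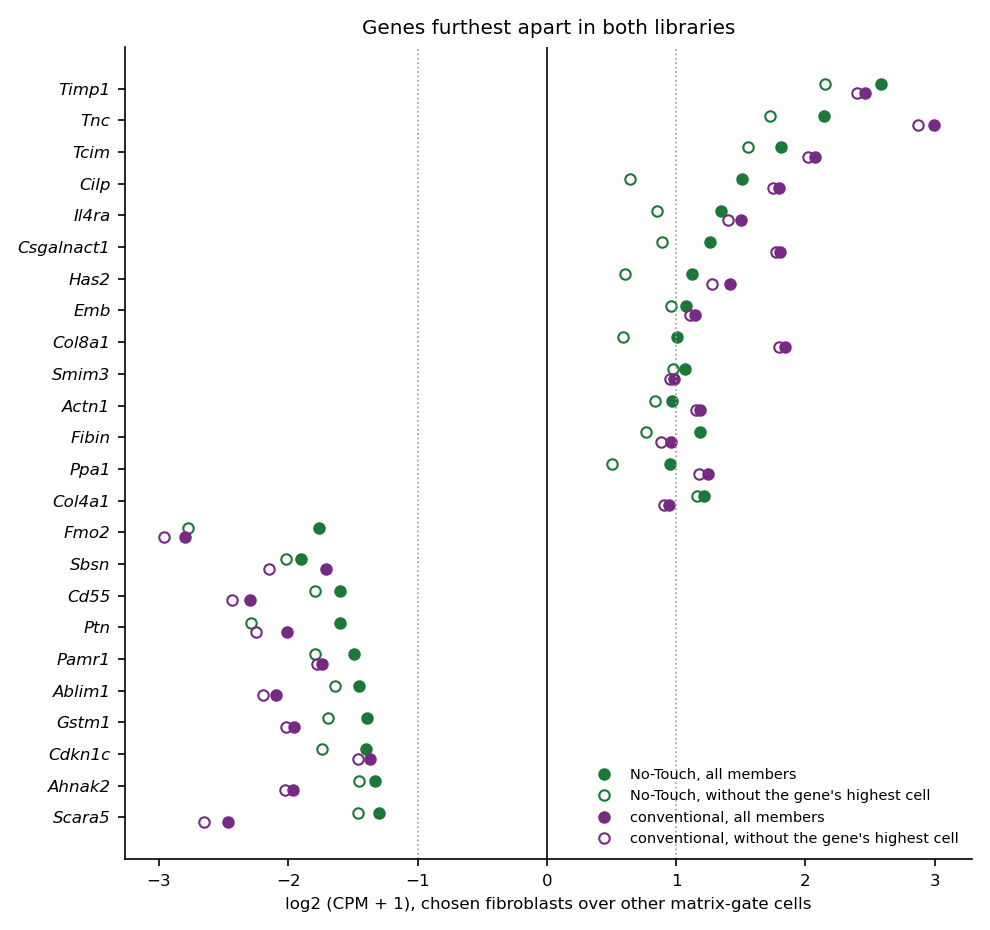
Log2 ratio of CPM + 1, chosen cells over other gate cells, for 14 of the 15 highest and the 10 lowest genes; green is No-Touch, purple is conventional, and hollow points leave out the gene's highest cell. Timp1, Tnc and Tcim stay past the dotted line at 2 times in both libraries, while for Cilp the No-Touch point moves to 1.56 times.

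In the conventional library the chosen cells had features that the No-Touch cells shared in part. Thbs4 (chr13:92751590-92794818, minus strand) encodes thrombospondin 4, a matricellular protein of tendon and of injured vessel walls. It was at 474 CPM in No-Touch and 1954 CPM in conventional, 1.68 and 11.1 times the other gate cells. In the median cell it was at 0.225 per 10000 UMIs in No-Touch and 8.38 in conventional, where others had 0.147 and 0. After thinning, 24.1% of chosen No-Touch cells held a Thbs4 UMI, near the 22.1% of the other gate cells, and 65.1% of chosen conventional cells, where others had 12.9%. Without the highest cell the No-Touch level was 0.983 times the others and the conventional level 10.8 times. Among genes picked after their values were seen, Ass1, an enzyme of arginine synthesis, was at 61.6 CPM in No-Touch and 189 CPM in conventional, 6.49 and 8.84 times the others. It had a UMI in 9 of 29 No-Touch and 48 of 110 conventional cells, with 35.4% and 25.2% of its UMIs from 1 cell. Dio2, which activates thyroid hormone, was 1.45 and 7.41 times the others, and Pcsk5, a proprotein convertase, 1.59 and 4.61 times. Of their No-Touch UMIs, 1 cell gave 50.9% for Dio2 and 22.8% for Pcsk5.

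The conventional cells also lay together by genes that the rule did not use. Among the 15 nearest neighbours of each cell, in 30 principal components of 2000 variable genes without the rule's genes, chosen cells made up a median of 40% in conventional, where they were 2.24% of the gate. In No-Touch the median was 0%, where they were 0.367% of the gate. Their mean shares were 2.99% in No-Touch and 37.3% in conventional. In No-Touch 18 of 29 cells had no chosen neighbour, and in conventional 16 of 110 had none and 43 had at least 50% of their neighbours chosen. With 29 chosen cells among 7912 gate barcodes, the No-Touch median of 0% does not show that they lie apart. Their mean of 2.99% lay above their gate share of 0.367%. Conventional chosen cells were deeper than the other gate cells there, at a median of 35729.5 UMIs against 20451, and the part of depth was not tested. The genes compared are from the same cells, so this describes the choice.

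Across the 110 conventional cells the leading genes varied together, as a description with depth shared between the axes. Spearman's rho was 0.69 for Timp1 with Tnc, 0.55 for Thbs4 with Tnc, 0.53 for Inhba with Tnc and 0.49 for Prg4 with Thbs4. It was 0.26 for Cxcl14 with Prg4. Depth moved with the same genes, with rho of 0.68 for Timp1 and 0.65 for Tnc with the UMIs per cell, and its part was not tested. Across the 29 No-Touch cells Timp1 with Tnc gave 0.37, Thbs4 with Tnc 0.47, Inhba with Tnc 0.24 and Prg4 with Thbs4 0.03. Cxcl14 with Prg4 gave 0.43 in No-Touch, above the 0.26 of conventional. Depth gave 0.48 with Timp1 and 0.48 with Tnc in No-Touch.

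Between the libraries, 132 of 3222 genes (4.1%) were at least 2 times higher in No-Touch chosen cells and 123 (3.82%) at least 2 times lower, where genes entered with 50 CPM or more on either side. In the other gate cells 53 of 3065 genes were higher and 46 lower, and of the chosen cells' genes 27 of the 132 and 23 of the 123 were apart the same way there. The chosen cells are far fewer, 29 and 110, which widens their ratios. Without each gene's highest cell the counts were 84 higher and 157 lower, and the higher calls made up 34.9% in place of 51.8%. A cell left out of 29 takes more from a sum than a cell left out of 110. That setting therefore shifts the counts this way by itself, and nothing is read from the shift. The median gene was at a log2 ratio of -0.04 in the chosen cells and 0.06 in the others.

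Part of the interferon-response genes were higher in No-Touch. Of 14 measured, 6 passed 2 times upward and 0 downward, and the median log2 ratio was 0.84, where the other gate cells had 0.76. Over all genes 4.1% were higher and 3.82% lower, which stands beside this count and that of each list below. Iigp1, an interferon-inducible GTPase, was at 963 CPM in No-Touch (911 to 1017) and 113 CPM in conventional (103 to 124), a ratio of 8.49 (7.64 to 9.46). It was close to the other gate cells in No-Touch, which had 943 CPM, and below them in conventional, which had 304. Isg15, Rtp4, Gbp2 and Gbp3 were also higher, with ratios from 2.54 to 3.46. Of 9 genes of MHC class I presentation, 4 were higher and 0 lower, with a median of 0.85, against 0.36 in the other gate cells. H2-T23 had a ratio of 3.83 and B2m, the shared light chain, one of 2.18. Reads of MHC class I heavy chain genes can be split between close copies, so H2-T23 is uncertain.

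Chemokines were split. Of 13 measured, 3 were higher and 3 lower in No-Touch. Cxcl10 and Cxcl9, which draw T cells, were at 864 and 310 CPM in No-Touch and at 135 and 86.2 CPM in conventional, and 1 No-Touch cell gave 32.9% and 45.9% of their UMIs. Cxcl12, the ligand of Cxcr4, had a ratio of 2.29. The neutrophil attractants Cxcl2 and Cxcl5 were lower, at 893 and 474 CPM in No-Touch and at 3145 and 1114 CPM in conventional. Cxcl2 was also low in the other No-Touch gate cells, at 691 CPM against 3139 CPM in conventional. Ccl20 had 0 UMIs in No-Touch and 144 CPM in conventional, at least 63.7 times lower in No-Touch against a floor of 3 UMIs. Its conventional UMIs came from 17 of 110 cells, with 37.1% from 1 cell. Cxcl1, Ccl2 and Ccl7 had ratios of 1.18, 1.08 and 1.22.

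Of 21 cytokine and NF-kappaB genes, 3 were higher and 4 lower. Il6 was at 394 CPM in No-Touch and 140 CPM in conventional, a ratio of 2.82 (2.50 to 3.18). It had a UMI in 27 of 29 and 85 of 110 cells. The other gate cells differed the same way. After thinning, an Il6 UMI was in 49.7% of them in No-Touch and 27.9% in conventional. For the chosen cells these shares were 55.2% and 33.9%. Csf2 was called from 1 No-Touch cell, which gave all of its UMIs. Il1rl1, the receptor of interleukin 33, was at 23.3 CPM in No-Touch and 176 CPM in conventional, and Il11 at 6.01 and 51.3 CPM. Lif, a cytokine of the interleukin 6 family, was above the other gate cells in both libraries, 3.56 times in No-Touch and 2.93 times in conventional, with a No-Touch over conventional ratio of 0.779. Icam1 and Csf1 had ratios of 0.417 and 0.427.

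In the activin and BMP family Inhba had a ratio of 0.144 (0.117 to 0.176). Of 9 other ligands and antagonists measured, 0 were higher and 0 lower, where 4.1% and 3.82% of all genes were, so that nothing is read from so short a list. The median of these 9 was -0.35, against -0.01 in the other gate cells. Fst, which encodes the activin-binding follistatin, was at 135 CPM in No-Touch and 206 CPM in conventional. Of 9 receptors and targets 1 was higher, Id2, an inhibitor of basic helix-loop-helix factors, with a ratio of 3.68 (2.96 to 4.57). Among growth factors 0 were higher and 3 of 8 lower in No-Touch: Ereg, a ligand of the EGF receptor, at 17.3 CPM in No-Touch and 146 CPM in conventional, Fgf2 and Vegfa. Hbegf, another ligand of that receptor, was at 25.5 CPM in No-Touch and 124 CPM in conventional. After thinning, an Ereg UMI was in 2.82% of the other gate cells in No-Touch and 14.3% in conventional. For Hbegf these shares were 5.04% and 8.75%. The median of the 8 growth factors was -0.20, against -0.28 in the other gate cells.

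Some matrix genes were higher in No-Touch. Of 14 collagens outside the rule, 3 were higher (Col6a1, Col6a3 and Col15a1) and 0 lower, with a median of 0.80, against 0.54 in the other gate cells. Col6a3 was at 945 CPM in No-Touch and 371 CPM in conventional. Of 10 myofibroblast genes 4 were higher (Acta2, Tagln, Tpm2 and Fap) and 0 lower, with a median of 0.62, against 0.23. Acta2, smooth muscle actin, was at 280 CPM in No-Touch and 46.8 CPM in conventional, and 1 No-Touch cell gave 50% of its UMIs. The fixed smooth muscle markers summed to 382 CPM in the No-Touch and 120 CPM in the conventional chosen cells, with 1 No-Touch cell at 4269 CPM, and its part in the Acta2 ratio was not tested. Without the highest cell Acta2 was at 146 CPM in No-Touch and 43.8 CPM in conventional.

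Among small proteoglycans Lum and Aspn were higher and Fmod, fibromodulin of tendon and cartilage, lower, at 36.8 CPM in No-Touch and 194 CPM in conventional. Has1 and Tnfaip6, which make and crosslink hyaluronan, had ratios of 3.19 and 2.20. Of the Wnt inhibitors Sfrp2 was at 1865 CPM in No-Touch and 430 CPM in conventional, a ratio of 4.33 (4.08 to 4.61). In the other gate cells Sfrp2 was at 2361 CPM in No-Touch and 997 CPM in conventional. Crabp2, a retinoic acid carrier, was at 412 CPM in No-Touch and 64.5 CPM in conventional, with 44.7% of the No-Touch UMIs from 1 cell and a UMI in 12 of 29 cells. Rgs2 was called largely from 1 cell, which gave 76.8% of its No-Touch UMIs; without the highest cell in each library it was at 42.1 CPM in No-Touch and 21.7 CPM in conventional, under 2 times apart.

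Part of the genes of glycolysis and hypoxia were lower in No-Touch chosen cells. Of 11 measured, 0 were higher and 4 lower, the glycolytic Gapdh, Eno1 and Pkm and the growth factor Vegfa already counted above, with a median of -0.78, against -0.29 in the other gate cells. Pkm, pyruvate kinase, was at 264 CPM in No-Touch and 632 CPM in conventional, which was 1.40 and 2.41 times the other gate cells. Eno1, enolase, was at 105 CPM in No-Touch and 316 CPM in conventional, 1.29 and 2.60 times the others, and Ldha 1.23 and 2.01 times. In conventional 4 of 9 measured genes of this list were at least 2 times above the other gate cells, where 91 of all 2832 genes were. In No-Touch 0 of the 9 were, where 46 of 2832 genes were, so nothing is read from that 0.

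Some of the furthest genes lay apart in the other gate cells too. Nr1d1, a repressor of the circadian clock, was at 156 CPM in No-Touch and 17.0 CPM in conventional, while the other gate cells had 149 and 25.4 CPM. Gt(ROSA)26Sor, the noncoding transcript of the ROSA26 locus, was at 19.5 CPM in No-Touch and 438 CPM in conventional, while the others had 13.1 and 192 CPM. The sources used here do not say whether counting used the strand, so this locus with its overlapping neighbours is uncertain. Of the remaining named genes, Myadm, Ccn3 and Igfbp5 were higher in No-Touch, with ratios of 3.98, 3.78 and 3.45. The direction of Igfbp5 turned without barcodes that held another cell type's markers: its log2 ratio was 1.78 with all cells, -0.15 without those barcodes, and 0.92 by the mean over cells. Procr, Eif3j2, Crispld2 and Cited2 were lower, with ratios of 0.184, 0.194, 0.208 and 0.266. In the median other gate cell Crispld2 (0.406 in No-Touch, 0.885 in conventional) and Eif3j2 (0 and 0.251) were lower in No-Touch too. Procr (0.179 and 0) and Cited2 (0.301 and 0) went the other way there.

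**Figure D4:**
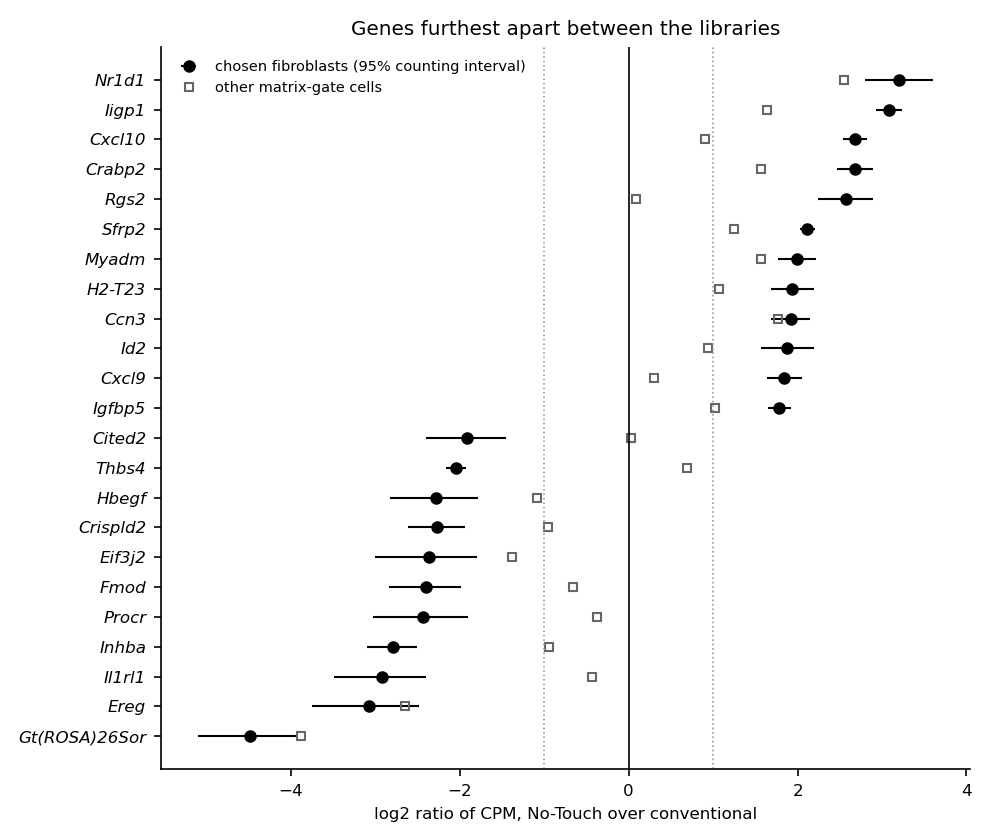
Log2 ratio of CPM, No-Touch over conventional, for 23 of the 24 furthest named genes (Ccl20, with 0 UMIs in No-Touch, is left out); filled points are the chosen cells with 95% counting intervals and hollow squares the other gate cells. Thbs4 has a ratio of 0.243 in the chosen cells and lies above 0 on the log2 scale in the others, whereas Nr1d1 and Gt(ROSA)26Sor lie on the same side in both.

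Digestion can raise genes of the immediate early and heat shock response. Of these, 5 of 20 were higher in No-Touch (Fos, Zfp36, Nr4a1, Socs3 and Myc) and 3 lower (Ier3, Hspa1a and Hspa1b), with a median of 0.14. Their part in the other differences was not tested. Of 13 chaperones of the endoplasmic reticulum, 0 were higher and 0 lower. Of 11 plasminogen and coagulation genes 1 was lower (Procr). Of 13 matrix proteases and their inhibitors 1 was higher, Timp3, at 697 CPM in No-Touch and 256 CPM in conventional.

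**Figure D5:**
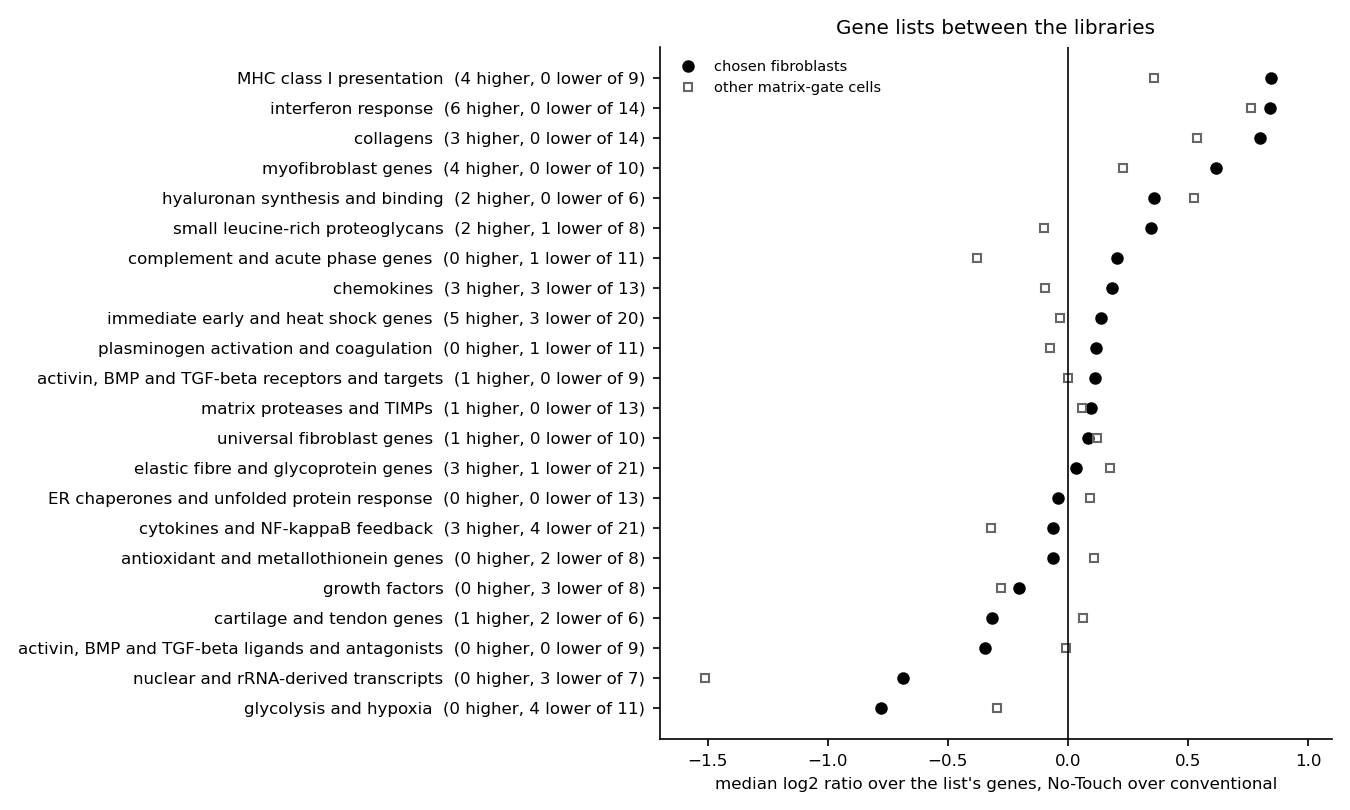
Median log2 ratio, No-Touch over conventional, of each gene list with at least 6 measured genes, with the counts of genes at least 2 times higher and lower in the chosen cells beside its name; filled points are the chosen cells and hollow squares the other gate cells. The lists run from MHC class I presentation at 0.85 to glycolysis and hypoxia at -0.78 in the chosen cells.

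Of the markers of other cell types, those of chondrocytes or tenocytes had the highest sum in both libraries. They were at 519 CPM in No-Touch and 490 CPM in conventional, above the other gate cells, which had 286 and 329 CPM. Chad was at 0 in both, and Comp, a matrix protein of cartilage and tendon, made up 479 CPM in No-Touch and 425 CPM in conventional, where others had 242 and 307. The highest cell reached 5385 CPM of these markers in No-Touch and 10050 CPM in conventional. Without that cell the sums were 399 CPM in No-Touch and 416 CPM in conventional, 1.39 and 1.27 times the others. The tendon and cartilage genes described above changed little without it: Thbs4 was 1.71 times the others in No-Touch and 11.2 times in conventional, and Cilp 2.91 and 3.50 times. Fmod was then at 26.9 CPM in No-Touch and 178 CPM in conventional.

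Of 10 mesothelial markers 7 were at 0 in No-Touch and 3 in conventional, and they summed to 12.8 and 35.6 CPM. Epithelial, B cell and adipocyte markers were all at 0 in No-Touch, and Ptprc, which encodes CD45, was at 0 there too. Neutrophil markers summed to 10.5 CPM in No-Touch and 111 CPM in conventional, where 1 cell reached 3904 CPM. Parathyroid markers summed to 13.5 CPM in No-Touch and 203 CPM in conventional, below the 93.4 and 310 CPM of the other gate cells. Barcodes with at least 2 UMIs over 7 markers of other types made up 27.6% of chosen cells in No-Touch, where others had 22.9%, and 35.5% in conventional, where others had 27.2%. Deeper barcodes reach 2 UMIs more readily, and no doublet caller was run, so the part of doublets was not tested.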

How the data were processed

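The labels' titles gave the groups, 1 No-Touch and 1 conventional library. The authors deposited 1 filtered matrix of UMI counts per library, with genes against cell barcodes. Per the submitters' processing notes they were made with Cell Ranger 3.1.0 on mm10, while per the file headers Cell Ranger 6.0.0 wrote them; this was not settled. Per the labels' protocols the 10x kit version may differ between the libraries.

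Kept barcodes had 500 or more genes, 1000 or more UMIs and no more than 10% mitochondrial UMIs. UMIs were summed over cells and scaled to counts per 1000000 UMIs (CPM). Ratios are of CPM, and log2 ratios of CPM + 1. A gene of 50 CPM or more was counted as apart from a ratio of 2 times, without the rule's and mitochondrial genes. Named genes of at least 100 CPM are the 12 highest and 12 lowest No-Touch over conventional ratios and the 15 highest and 10 lowest over other gate cells, leaving out ribosomal protein, predicted, Y-linked and other cell types' marker genes, up to 4 per list and the label's markers. The highest over other gate cells need not reach 2 times. Other genes named were chosen after their values were seen. Aldoa, Ccl19, Ccl21a and Ddit3 share their symbol between gene IDs and were not used. Some genes that the rule gives are not reported here. Gene positions are from GENCODE on mm10. The members and the 27 gene lists were chosen with earlier results of these data known.

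No test was possible with 1 library per group. Intervals are Garwood's for counts, Clopper-Pearson's for shares and conditional binomial for ratios. Statistics were tested on simulated data, with python 3.11.15, numpy 2.4.6, scipy 1.17.1 and, for trimmed-mean (TMM) scaling, edgeR 4.0.16. The simulated sums held counting error and no variation between cells, so they do not show how sums that rest on few cells behave. Alternatives changed the rule's thresholds, the scaling, the minimum CPM, the depth and the cells kept.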

Additional observations from a re-analysis of the deposited data

Results flagged for a closer look

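For 2 genes the No-Touch over conventional difference lay one way in the chosen cells and the other way in the other gate cells, each by at least 2 times. Whether these differences differ was not tested. Spp1, which encodes osteopontin, had a log2 ratio of 1.5 in the chosen cells (689 CPM in No-Touch, 243 CPM in conventional) and of -1.56 in the others (98.7 and 293 CPM). Of its UMIs in chosen No-Touch cells 63.7% came from 1 cell, and without the highest cell of each library the log2 ratio was 0.45. Csf3, the granulocyte growth factor, had a log2 ratio of 1.77 in the chosen cells (110 CPM in No-Touch, 31.8 CPM in conventional) and of -2.80 in the others (8.92 and 68.2 CPM). It had a UMI in 5 of 29 chosen No-Touch cells, and 1 cell gave 49.0% of these UMIs. Without the highest cell of each library Csf3 was at 58.3 CPM in No-Touch and 9.87 CPM in conventional. Its log2 ratio was then 2.45, so the conventional level rested on 1 cell even more than the No-Touch level did.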

How the results depend on the processing

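The share of chosen cells was lower in No-Touch than in conventional under each of the 11 other settings, with ratios of 0.0861 for Cxcl14 of at least 40 per 10000 UMIs and of 0.36 for matrix genes of at least 3% at the ends. The rest lay within the interval of the main ratio. Settings with Cxcl14 alone, with at least 20000 UMIs and without each gene's highest cell were chosen after seeing the data. Counts of genes higher and lower between the libraries were 74 and 72 at a minimum of 100 CPM and 1031 and 998 with no minimum. With each cell thinned to 5000 UMIs they were 285 and 327, where fewer UMIs widen the ratios. Without each gene's highest cell they were 84 higher and 157 lower, where 1 cell weighs more among 29 than among 110. Against the other gate cells, genes higher and lower in both libraries were 40 and 48 for Cxcl14 of at least 40 per 10000 and 10 and 19 at 100 CPM. Without each gene's highest cell they were 4 and 48, where only the chosen cells lost a cell. Without barcodes that held markers of another cell type, the log2 ratio of Igfbp5 between the libraries turned to -0.15 and that of Serpinb2 to 0.26; the cause was not tested. That setting moved Procr from -2.39 to -1.68, Fmod from -2.37 to -1.11, Eif3j2 from -2.31 to -3.07, Inhba from -2.78 to -3.38 and Thbs4 from -2.04 to -2.63. The settings without the 3 highest cells of a gene and without the cell highest in chondrocyte or tenocyte markers were also chosen after seeing the data. TMM and median-of-ratios scaling left all 55 named and marker ratios within their counting intervals. Other settings moved many of these 55 out of their intervals. There were 18 by the mean over cells, 27 with Prg4 of at least 1 per 10000 UMIs and 28 without each gene's highest cell. Without barcodes that held another cell type's markers, 23 moved and 2 more turned direction. With 29 cells in No-Touch, single cells decide many of its sums. No paired analysis was possible because each group has 1 library and the labels give no replicate numbers.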
